A study of Mus musculus with 15 samples.

Results

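Retinal pigment epithelium (RPE) that carried Bai1 transcripts was compared with RPE that did not, by the reads themselves. Of the 15 libraries of the series, the 7 with Bai1 in their titles were used, 3 titled Bai1 Tg pos (transgene positive) and 4 titled Bai1 Tg neg. The members were chosen by measured Adgrb1 reads, the gene that encodes BAI1, in CPM, its counts per 1000000 fragments counted in the library. The 4 libraries above 50 CPM are called expressing and the 3 below 1 CPM non-expressing. The expressing libraries are Bai1 Tg pos 1 to 3 and Bai1 Tg neg 4, and the last was moved against its title. The non-expressing libraries are Bai1 Tg neg 1 to 3.

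All 7 libraries came from RPE of female mice at postnatal day 14, collected from 2 hours after light onset, and all carry wild-type Mertk. The strain label, shared by every library of the series, is a mixture of c57Bl/6J with B6;129-Mertktm1Grl/J, a line with the Mertk knockout allele. The other 8 libraries, 4 Mertk WT and 4 Mertk KO, have no Bai1 in their titles. The sources used here do not name the promoter, species of origin or founder line of the Bai1 transgene. They also do not say whether each library is its own animal, so a p-value here reflects the spread among libraries, part of which may be technical.

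BAI1 is an adhesion G protein-coupled receptor whose extracellular thrombospondin repeats bind phosphatidylserine (PtdSer), the lipid that dying cells and shed photoreceptor tips expose. Inside the cell it recruits ELMO and DOCK proteins, which activate the GTPase RAC and so drive the actin movements of engulfment. The RPE engulfs the shed tips of photoreceptor outer segments each day, a task for which it uses the receptor tyrosine kinase MERTK, its ligands GAS6 and protein S, and the integrin made of the αv and β5 chains. The study is about PtdSer receptors that may stand in for one another, and the comparison asks which other transcripts differ where Bai1 is present in RPE with intact Mertk.

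Adgrb1 (chromosome 15, 74516195 to 74589465, GRCm38) had 1708, 2857 and 3111 counts in Bai1 Tg pos 1, 2 and 3 and 2875 counts in Bai1 Tg neg 4. These are 167.8, 172, 165 and 144 CPM of the library total. Bai1 Tg neg 1, 2 and 3 had 0, 2 and 2 counts, or 0, 0.12 and 0.142 CPM. A count of 0 in Bai1 Tg neg 1 allows a level of up to 0.238 CPM, the value of 3 counts there. The lowest expressing library, Bai1 Tg neg 4 with 144 CPM (95% exact Poisson interval 138 to 149), and the highest non-expressing one, Bai1 Tg neg 3 with 0.142 CPM (0.0172 to 0.514), are the values just inside and just outside the division. The interval of Bai1 Tg neg 4 lies below those of the 3 Bai1 Tg pos libraries, of which the lowest begins at 159.5 CPM. In the 8 Mertk libraries Adgrb1 was between 0 and 0.432 CPM. These values chose the groups and are given with no test.

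**Figure D1:**
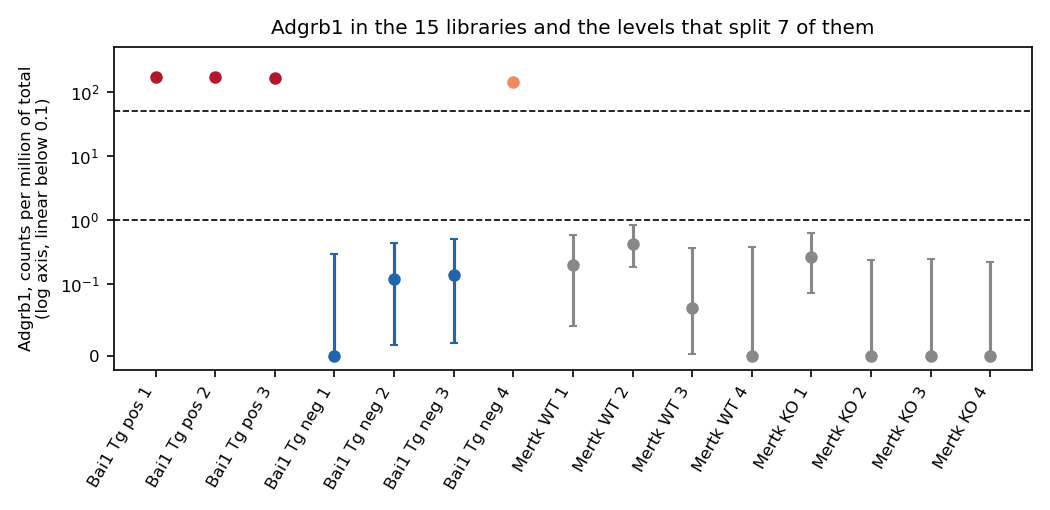
Adgrb1 in CPM of the library total, on an axis that is logarithmic above 0.1 and linear below. Points are libraries with exact 95% Poisson intervals (counting error only), red for Bai1 Tg pos, orange for Bai1 Tg neg 4, blue for Bai1 Tg neg 1 to 3 and grey for Mertk libraries, and dashed lines mark 1 and 50 CPM. Bai1 Tg neg 4, at 144 CPM, sits beside the Bai1 Tg pos libraries, and all others lie at or below 0.432 CPM.

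Library totals were 10180627 to 20024507 counted fragments among the 7, and 9591129 to 20024507 over the series. The tissue label was checked on RPE markers, of which all 9 passed the low-count filter. Their summed level was 55340.2 to 62045 CPM in expressing and 53830.5 to 57910 CPM in non-expressing libraries. From here on CPM values are scaled by TMM factors, which correct for composition, over the 7 libraries, and log2 fold changes are expressing minus non-expressing. All pairs of libraries in a group differed by more than sampling noise. The chi-square for each degree of freedom was 5.03 to 8.42 in pairs of non-expressing libraries and 11.6 to 22.8 in pairs of expressing ones.

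Adgrb1, which chose the groups, was left out of the test and of the adjustment. The other 13854 genes that passed the low-count filter were tested with edgeR's quasi-likelihood test, and 0 (0%) passed an adjusted p of 0.05. Below, "passed" refers to this test unless another setting is named. The smallest adjusted p was that of Rsrp1, 0.0637, lower in the expressing libraries. With Adgrb1 kept as a rank in the adjustment, a setting added after the data were seen, it would be 0.0319. At an unadjusted p under 0.05 there were 552 genes (3.98%), 282 of them higher (2.04%) and 270 lower (1.95%), and 104 genes (0.751%) lay under 0.01. The median log2 fold change over all tested genes was 0.003, and 50.6% of genes lay above 0. In 810 genes (5.85%) the 4 expressing libraries did not overlap with the 3 non-expressing ones, 395 above (2.85%) and 415 below (3%). Without ties, random labels give no overlap in a share of 0.0571 of the 35 splits of 4 against 3, close to the share seen. The median SE of a log2 fold change was 0.153, or 0.109 for the 8767 genes with a mean of at least 10 CPM. DESeq2, run on the same groups, called 16 genes (0.0723%), 4 higher (0.0181%) and 12 lower (0.0542%), Rsrp1, Fdps and Idi1 among the lower, and edgeR with no filter on low counts called 63 (0.275%), 36 higher (0.157%) and 27 lower (0.118%).

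With Bai1 Tg neg 4 left out, so that the 3 Bai1 Tg pos libraries faced Bai1 Tg neg 1 to 3, 4 of 13561 genes passed (0.0295%), all lower: Fdps, Gm26809, Rsrp1 and Ubald1. With all 7 libraries as titled, 2 genes passed (0.0144%), Fdps and Gm26809, both lower. Rsrp1 did not pass as titled. Where a gene was chosen without Bai1 Tg neg 4, that library could be placed independently. On the log2 scale its level was nearer to the Bai1 Tg pos mean than to the mean of Bai1 Tg neg 1 to 3 in 1 of the 4 genes called, Rsrp1. Among the 589 genes (4.34%) with an unadjusted p under 0.05 in that fit it was nearer to Bai1 Tg pos in 263 (44.7%), and over all 13561 genes in 46.7%. These shares are close to each other, and no test was made of them.

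Rsrp1 (ENSMUSG00000037266, chromosome 4, 134923592 to 134927671) encodes an arginine- and serine-rich protein. It stood at 258, 277 and 254 CPM in Bai1 Tg pos 1 to 3 and at 289 CPM in Bai1 Tg neg 4, against 365, 363 and 390.4 CPM in Bai1 Tg neg 1 to 3. All 4 expressing libraries lay below all 3 non-expressing ones, with means of 269.6 ± 16.5 CPM (SD, n = 4) and 373 ± 15.4 CPM (SD, n = 3). The log2 fold change was -0.47 ± 0.066 (SE) with an adjusted p of 0.0637 in edgeR, which did not pass. Without Bai1 Tg neg 4 it fell by 0.50 with an adjusted p of 0.0458, and as titled the value was -0.41 with an adjusted p of 0.551. It passed in 7 of 17 alternative settings, among them without Bai1 Tg pos 1 (adjusted p 0.0485), and did not pass without Bai1 Tg pos 2 (0.102), Bai1 Tg pos 3 (0.197) or Bai1 Tg neg 1 (0.142), 2 (0.213) or 3 (0.401). Its log2 fold change was between -0.50 and -0.41 in every setting. Scaled over all 15 libraries, Rsrp1 was 241 to 344 CPM in Mertk WT, 300.1 to 364 CPM in Mertk KO and 253 to 387 CPM in the 7 Bai1 libraries.

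Fdps and Idi1, adjacent steps of isoprenoid synthesis, were also lower in every expressing library. The mevalonate pathway makes the isoprene units of cholesterol and of the lipid anchors of small GTPases. IDI1 converts isopentenyl diphosphate to its isomer, and FDPS joins the isomers into farnesyl diphosphate. Fdps (chromosome 3, 89093588 to 89101959) was at 24.8, 23.4 and 24.3 CPM in Bai1 Tg pos 1 to 3, at 44.2 CPM in Bai1 Tg neg 4, and at 47.9, 64.1 and 57.6 CPM in Bai1 Tg neg 1 to 3. The groups did not overlap, but Bai1 Tg neg 4 was closer to the lowest non-expressing library than to any Bai1 Tg pos library. The log2 fold change was -0.95 ± 0.23 (SE) with an unadjusted p of 0.00297, and it did not pass. On the same groups it did with no low-count filter (adjusted p 7.82e-05 in edgeR) and in DESeq2 (0.00417). Without Bai1 Tg neg 4 Fdps fell by 1.22 on the log2 scale, with an adjusted p of 0.00341 in edgeR. As titled it fell by 1.14, with an adjusted p of 0.00425.

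Idi1 (chromosome 13, 8885501 to 8892451) was at 46.9, 49.9 and 37.5 CPM in Bai1 Tg pos 1 to 3, 57.9 CPM in Bai1 Tg neg 4, and 74.2, 97.7 and 74.6 CPM in Bai1 Tg neg 1 to 3. All expressing libraries lay below all non-expressing ones. The log2 fold change was -0.77 ± 0.14 (SE), with an adjusted p of 0.371 in edgeR and of 0.0724 without Bai1 Tg neg 4. It passed with no low-count filter (1.35e-11 in edgeR) and in DESeq2 (0.000615). With no low-count filter its log2 fold change was still -0.77, so the p-value moved and the difference did not. The same was seen for Junb, with an adjusted p of 1.97e-13 there against 0.522 in the filtered edgeR test. Passing in edgeR with no low-count filter is therefore given only as a dependence on the setting, for every gene named here. Both genes share sequence that bears on their counts. Fdps shares 1124 exon bases with Gm43738, and Idi1 has copies such as Gm13502, identical over 684 bases. Summed with the copies and overlapping genes, Fdps was 29.2 ± 10.03 against 56.6 ± 8.15 CPM and Idi1 49.2 ± 7.42 against 82.8 ± 13.3 CPM (SD, n = 4 and n = 3), still without overlap. The added genes held at most 0.0715 CPM for Fdps and 0.253 to 2.85 CPM for Idi1, so the sums could hardly differ. Reads that fit more than 1 gene may be in no count, and the sums cannot recover them. Scaled over all 15 libraries, Fdps was 21.0 to 31.8 CPM in Mertk WT and 13.5 to 28.4 CPM in Mertk KO, against 23.2 to 64.2 CPM in the 7 Bai1 libraries. Idi1 was 27.3 to 35.5 CPM in Mertk WT, 18.4 to 38.7 CPM in Mertk KO and 37.3 to 97.9 CPM in the Bai1 libraries, which are thus mostly above the Mertk libraries for Idi1. For Fdps, Bai1 Tg pos 1 to 3, at 23.4 to 24.8 CPM scaled over the 7 libraries, lay within the Mertk WT range. Bai1 Tg neg 1 to 4, at 44.2 to 64.1 CPM, lay above all Mertk libraries. The Mertk libraries carry other tag numbers in their descriptions, and these differences were not tested.

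Most of the pathway lay slightly below 0 without a call. Of 21 mevalonate and cholesterol synthesis genes, all tested, 0 passed, 6 lay above 0 and the median log2 fold change was -0.07, beside 0.003 over all genes. At an unadjusted p under 0.05 there were 1 higher and 3 lower, beside 2.04% and 1.95% of all tested genes. Without Bai1 Tg neg 4 the median was -0.09 and Fdps was the 1 member that passed. Hmgcs1, the synthase that makes HMG-CoA, was at 340.0 to 571 CPM in the expressing and 443 to 556 CPM in the non-expressing libraries, which overlapped, with a log2 fold change of -0.12 ± 0.18 (SE). Lss, which closes the sterol rings, was at -0.31 ± 0.11 (SE) with overlapping groups. Abca1, which exports cholesterol and which engulfment is known to induce, was at 139.7 to 163 CPM in the expressing and 139 to 171 CPM in the non-expressing libraries. In the 24 tested genes of sterol control and lipid efflux the median was -0.004, with 11 above 0.

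Promoters of Rsrp1 and Idi1 are shown because the groups did not overlap in these transcripts. Each is the 250 bases before the RefSeq start on GRCm38.p6, plus strand, Rsrp1 at chr4:134923375-134923624 and Idi1 at chr13:8885356-8885605. The gene models of the deposited counts begin somewhat before these starts. Capitals mark CCAAT, the CCAAT box, searched on both strands and present here as ATTGG.
Rsrp1: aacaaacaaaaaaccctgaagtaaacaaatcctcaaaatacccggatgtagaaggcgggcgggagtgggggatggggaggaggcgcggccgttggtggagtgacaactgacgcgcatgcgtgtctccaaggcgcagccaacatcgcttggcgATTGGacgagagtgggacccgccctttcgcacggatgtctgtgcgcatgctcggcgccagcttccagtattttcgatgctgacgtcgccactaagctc
Idi1: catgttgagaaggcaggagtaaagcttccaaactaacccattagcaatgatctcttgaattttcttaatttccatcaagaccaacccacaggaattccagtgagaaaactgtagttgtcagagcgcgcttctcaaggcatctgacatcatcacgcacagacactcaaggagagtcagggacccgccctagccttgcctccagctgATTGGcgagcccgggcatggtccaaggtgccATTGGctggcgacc
Rsrp1 has 1 match and Idi1 has 2. The letters occur in 11120 of 32851 RefSeq promoters of this length (33.9%), and in 15 of the 16 mevalonate list members, of 21, that have a promoter in that table. The first share is counted by promoter. The list share is counted by gene, with a match in any of its promoters, so the shares are not like for like. These are matches of letters, not sites of binding.

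Ubald1 and Gm26809 passed in the fit without Bai1 Tg neg 4. Ubald1 (chromosome 16, 4874778 to 4880315), which encodes a small protein with a UBA-like domain, was at 56.1, 47.5, 50.1 and 66.4 CPM in the expressing libraries against 76.6, 91.6 and 80.3 CPM, without overlap. Its log2 fold change was -0.59 ± 0.11 (SE) with an adjusted p of 0.355 in edgeR, and -0.69 with an adjusted p of 0.0475 without Bai1 Tg neg 4. On the groups by reads Ubald1 passed with no low-count filter (adjusted p 1.63e-06 in edgeR) and in DESeq2 (0.0069). Gm26809 (chromosome 6, 18844220 to 18847360), a gene model with no established function, was at 0 in Bai1 Tg pos 1 to 3, at 2.02 CPM in Bai1 Tg neg 4, and at 6.77, 2.74 and 4.29 CPM in Bai1 Tg neg 1 to 3. Bai1 Tg neg 4 stood between the others for both genes. Gm26809 shares 855 exon bases with Gm20186 on the other strand, and reads of the pair cannot be told apart.

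**Figure D2:**
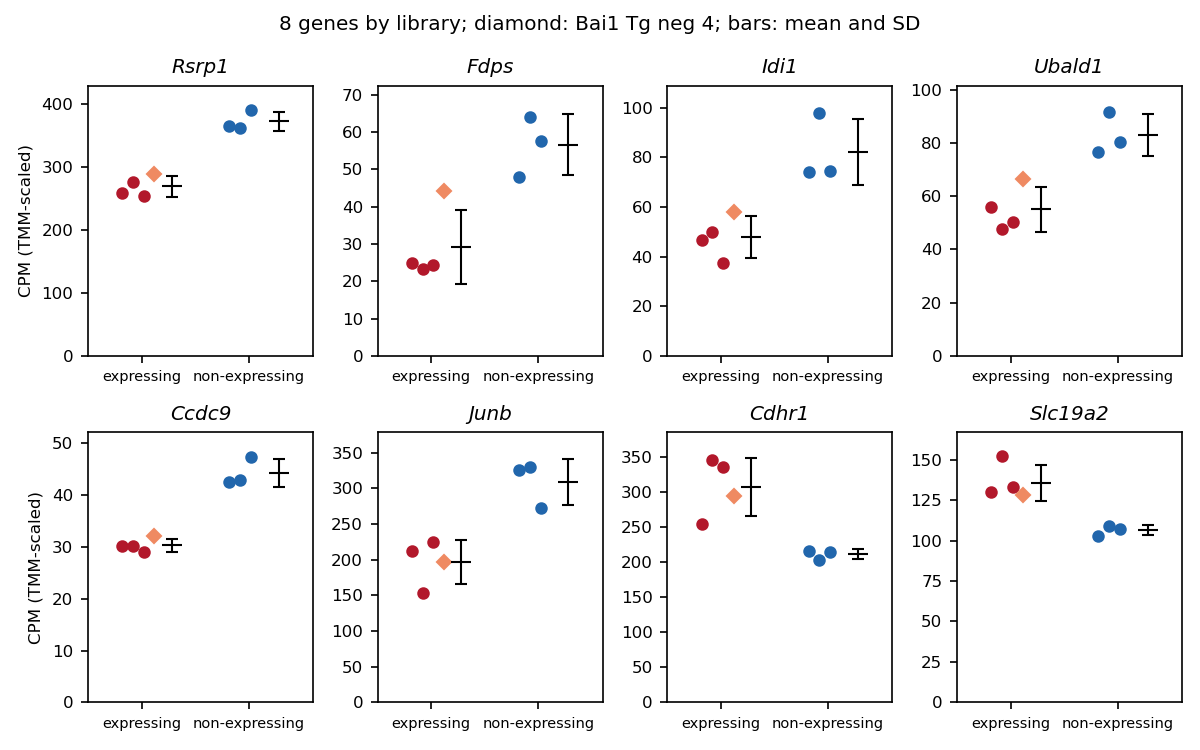
TMM-scaled CPM of 8 genes in the 4 expressing (red, with Bai1 Tg neg 4 as an orange diamond) and 3 non-expressing libraries (blue), with group means and SD in black and axes from 0. Groups do not overlap in any of the 8, and Bai1 Tg neg 4 is the expressing library nearest to the non-expressing ones for Rsrp1, Fdps, Idi1, Ubald1, Ccdc9 and Slc19a2. Most of the 8 were chosen for a small p in these same libraries, so the lack of overlap adds no support.

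Other genes of smallest p did not pass and are given as values. Cdhr1, a cadherin of photoreceptor outer segments, was at 254, 345, 335 and 295 CPM in the expressing libraries and at 217, 203 and 215 CPM in the non-expressing ones, a log2 fold change of 0.54 ± 0.093 (SE) with an adjusted p of 0.285 in edgeR. All expressing libraries lay above the others, and the value was 0.54 with the rod marker level as a covariate (adjusted p 0.215) and 0.56 without Bai1 Tg neg 4. It passed in 4 of 17 settings: without Bai1 Tg pos 1 (adjusted p 0.0072), with no low-count filter, in limma-voom and in DESeq2. Slc19a2, a thiamine transporter, was at 129.7, 152, 133 and 128 against 103, 109 and 107 CPM, again without overlap and with a log2 fold change of 0.35. It passed with no low-count filter in edgeR (adjusted p 0.0154) and in no other setting. Scaled over all 15 libraries, Cdhr1 was 285 to 421 CPM in Mertk WT and 221 to 282 CPM in Mertk KO. The Bai1 libraries had 203 to 343 CPM. Every Mertk library thus lay above the 203 to 217 CPM of Bai1 Tg neg 1 to 3. Slc19a2 was 109 to 133 CPM in Mertk WT, 109 to 129 CPM in Mertk KO and 102 to 151 CPM in the Bai1 libraries. These differences were not tested.

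Sorl1, an endosomal sorting receptor, had a log2 fold change of 0.31. Ehd3, a protein of endocytic recycling, had 0.43, Sptssa, a subunit of serine palmitoyltransferase, had 0.35, and Zmiz1, a transcriptional coregulator, had 0.72. The groups did not overlap in any of these 4, and none passed. With no low-count filter Sorl1, Ehd3 and Zmiz1 passed in edgeR, and Ehd3 also in DESeq2. Scaled over all 15 libraries, Sorl1 was 306 to 358 CPM in Mertk WT and 315 to 357 CPM in Mertk KO. The 7 Bai1 libraries had 235 to 339 CPM. In the same order Ehd3 was 230 to 351, 217 to 305 and 190 to 322 CPM. Sptssa was 78.3 to 85.7, 39.1 to 53.8 and 60.4 to 87.6 CPM. Zmiz1 was 12.2 to 24.3, 15.3 to 28.2 and 12.3 to 28.7 CPM. These differences were not tested. Among the other higher genes of smallest p were Slc6a13, a GABA and taurine transporter (0.23), Dsp, the desmosomal protein desmoplakin (0.37), and Rybp, a Polycomb component (0.52). Scaled over all 15 libraries, Slc6a13 was 993 to 1169 CPM in Mertk WT and 941 to 1124 CPM in Mertk KO. The Bai1 libraries had 859 to 1113 CPM. Lama2, a laminin chain, was at most 2.87 CPM, and Plau, the urokinase protease, at most 5.63 CPM. Dsp (adjusted p 0.00561), Lama2 (0.00428) and Plau (0.00521) also passed in edgeR with no low-count filter. Zxdb is identical over most of its length to Zxda, and its counts are uncertain.

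On the lower side Ccdc9, a coiled-coil protein, was at 30.1, 30.1, 29.0 and 32.1 CPM against 42.5, 42.8 and 47.3 CPM, a log2 fold change of -0.54 ± 0.097 (SE) with an adjusted p of 0.285 in edgeR (0.0069 in DESeq2). The 4 expressing values lay close together, and none reached the other group. Timm23, the channel of the inner mitochondrial membrane translocase, was at -0.88 (adjusted p 0.435) and has near-identical copies, such as Gm10273. Summed with these it was 11.2 ± 1.64 against 20.1 ± 3.25 CPM (SD, n = 4 and n = 3). The copies held 0.296 to 1.92 CPM, and the sum cannot recover reads that fit more than 1 of them. Timm23 passed in DESeq2 (adjusted p 0.0326). Palm, the membrane protein paralemmin, had -0.68, Chrna4, a nicotinic receptor subunit, -0.67, Scarf2, a scavenger receptor, -0.41, and Arhgef3, an exchange factor for RHOA, -0.35. Ppp1r10, a regulatory subunit of protein phosphatase 1, had -0.30, and Slc22a17, a receptor for lipocalin, had -0.27. With no low-count filter Ccdc9 (adjusted p 0.00288), Timm23 (0.00146), Scarf2 (0.0376) and Arhgef3 (0.0052) passed in edgeR.

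No PtdSer receptor or bridging protein passed. Of 30 listed, 23 were tested, 0 passed (as 0% of all genes), 12 lay above 0, and the median log2 fold change was 0.03, or 0.06 without Bai1 Tg neg 4. Mertk was at 234, 253, 221 and 251 CPM in the expressing libraries and at 220.3, 227 and 221 CPM in the non-expressing ones, which overlapped, with a log2 fold change of 0.11 ± 0.067 (SE). Its relative Tyro3 was at 269, 174, 228 and 214 against 204, 188 and 205 CPM (0.15 ± 0.12, SE), with the Bai1 Tg pos libraries both highest and lowest. Axl, the third kinase of that family, was at 3.92 to 9.64 and 4.82 to 7.47 CPM (-0.04 ± 0.31, SE).

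Among the ligands, Gas6 was at 173 to 221 CPM and 186 to 198 CPM (0.06 ± 0.086, SE). Pros1, which encodes protein S, was at 0.96 to 3.65 CPM and 0.311 to 1.22 CPM (1.25 ± 0.65, SE, unadjusted p 0.0753 in edgeR). Its groups overlapped, and it did not pass. Without Bai1 Tg neg 4 the Pros1 value was 1.49 (unadjusted p 0.0407 in edgeR), and as titled 1.43 (0.0257), and it passed in neither. Mfge8, which bridges PtdSer to integrins, was at -0.12 ± 0.11 (SE). Itgav, the αv chain, had 0.10 ± 0.067 (SE) and Itgb5, the β5 chain, -0.01 ± 0.067 (SE). Stab1, a scavenger receptor that binds PtdSer, had the smallest p of the list, with 11.4, 8.02, 13.3 and 10.3 CPM against 14.9, 15.6 and 16.4 CPM (-0.54 ± 0.18, SE, unadjusted p 0.0103). Its groups did not overlap, it did not pass, and it shares 109 exon bases with Nt5dc2. Of the other BAI receptors, Adgrb2 was at 0.43 to 0.79 CPM in expressing and 0.714 to 1.71 CPM in non-expressing libraries, and Adgrb3 was at 0 in all but Bai1 Tg pos 2 with 0.0599 CPM.

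Among the signalling partners of BAI1 no gene passed either. Of 31 engulfment genes 29 were tested, 0 passed, 19 lay above 0 and the median was 0.02, also 0.02 without Bai1 Tg neg 4. Elmo1, the ELMO protein first tied to BAI1, was at most 1.01 CPM in any library. Elmo2, its relative, had a log2 fold change of 0.13 ± 0.069 (SE), Dock1, the exchange factor that ELMO binds, -0.01 ± 0.10 (SE), and Rac1 0.06 ± 0.068 (SE). Rac1 shares 2309 exon bases with Daglb on the other strand. The smallest unadjusted p-values were those of Baiap2, a BAI1-binding adaptor of actin remodelling, and of Abi1, a subunit of the WAVE complex. Baiap2 was at 5.43, 2.93, 2.85 and 3.79 CPM against 1.71, 2.56 and 1.65 CPM, and Abi1 was at 68.6, 68.8, 73.7 and 66.5 CPM against 59.1, 62.6 and 62.0 CPM. The groups did not overlap in either, but their unadjusted p-values of 0.0331 and 0.0369 did not pass adjustment.

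**Figure D3:**
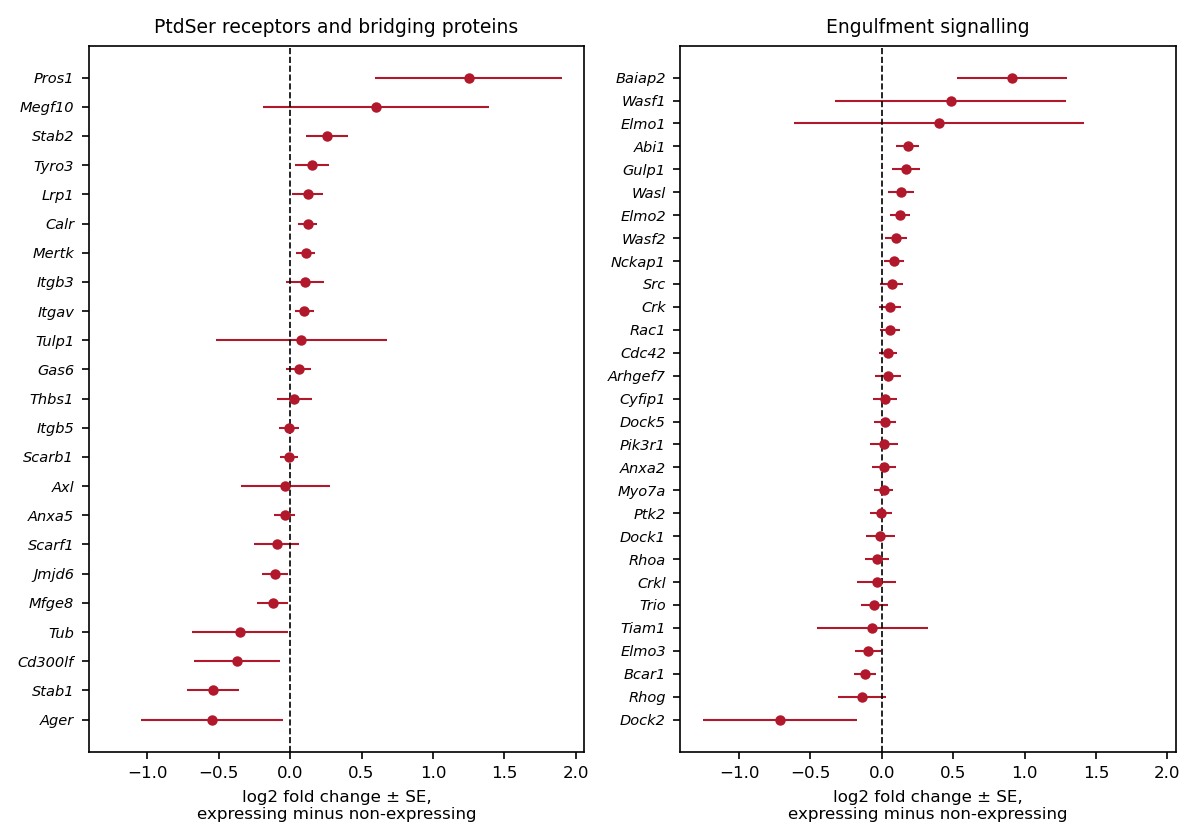
Log2 fold changes, expressing minus non-expressing, with SE as bars, of the 23 tested PtdSer receptors and bridging proteins and the 29 tested engulfment signalling genes. Wide bars belong to genes with few counts, such as Pros1, at most 3.65 CPM, and Elmo1, at most 1.01 CPM, and Mertk lies at 0.11 and Rac1 at 0.06.

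Later steps of engulfment had medians near that of all genes. In 33 tested lysosomal genes the median was 0.02 with 19 above 0, and in 20 genes of LC3-associated phagocytosis and autophagy it was -0.01 with 6 above 0. No member of either list passed.

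RPE functions lay slightly above 0 without a call. Of 12 visual cycle genes, which regenerate the chromophore, 9 lay above 0, the median was 0.08, and 3 had an unadjusted p under 0.05, all higher, beside 2.04% of all tested genes. Rpe65, the isomerase of that cycle, was at 5607, 5829 and 6056 CPM in Bai1 Tg pos 1 to 3, 5869.7 CPM in Bai1 Tg neg 4, and 5251, 5153 and 5328 CPM in Bai1 Tg neg 1 to 3. The groups did not overlap, the log2 fold change was 0.16 ± 0.055 (SE), and the unadjusted p of 0.0132 did not pass adjustment. Rdh10, a retinol dehydrogenase, likewise did not overlap, with 2786 to 3046 CPM against 2594 to 2721 CPM. Over 26 genes of RPE identity the median was 0.06 (0.01 as titled), and over 19 ion and water transport genes 0.07 with 16 above 0 (0.04 as titled). Cldn2, a pore-forming claudin, was at 258 to 296 CPM against 232 to 248 CPM, and Rab38, a GTPase of melanosome formation, at 25.96 to 28.8 CPM against 21.4 to 22.6 CPM. Their log2 fold changes were 0.19 ± 0.067 (SE) and 0.34 ± 0.11 (SE), and neither passed. Each had the smallest p of its list. The 19 tight junction and cadherin genes, with Cldn2, had a median of 0.05 with 13 above 0. The 20 melanin and melanosome genes, with Rab38, had a median of 0.02 with 12 above 0. Without Bai1 Tg neg 4 the melanin median was -0.002 with 10 above 0.

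Genes of the mitochondrial genome were above 0 in 10 of 11 cases with a median of 0.14, and 0 passed. mt-Nd2, a complex I subunit, was at 2253, 2093, 1825 and 1976 CPM against 1819, 1813 and 1573 CPM, without overlap. The 1 member below 0 was mt-Co3, at -0.49 ± 0.46 (SE). The summed level of the list overlapped, at 22658 to 29206.5 CPM against 22599 to 24707 CPM. So did the percent of counts in mitochondrial genes, at 2.97, 2.75, 2.28 and 2.55 against 2.45, 2.53 and 2.27 (exact two-sided permutation p 0.229). The nuclear-encoded respiratory genes had a median of -0.06 with 11 of 35 above 0, and cytosolic ribosomal proteins -0.07 with 14 of 50 above 0. Cell cycle genes had a median of 0.13 with 19 of 25 above 0, and complement factors and regulators 0.16 with 7 of 8 above 0, again with 0 passing.

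Immediate early genes, transcribed within minutes of a stimulus and of handling, had the lowest median of the lists with at least 3 tested members, -0.13 with 8 of 24 above 0. At an unadjusted p under 0.05 there were 4 lower and 0 higher, beside 1.95% and 2.04% of all tested genes, and 0 passed. Without Bai1 Tg neg 4 the median was -0.09, and as titled -0.04 with 11 above 0. It was further below 0 with the rod marker level as a covariate, at -0.25 with 5 above 0. With the tag number as a covariate it was -0.29 with 6 above 0. The mean log2 CPM of the list overlapped, at 6.11, 6.04, 5.19 and 5.81 against 6.03, 6.05 and 5.78 (exact two-sided permutation p 0.857). Junb, a subunit of the AP-1 factor, was at 213, 153, 224 and 196 CPM against 325, 329.5 and 272 CPM, without overlap, with a log2 fold change of -0.65 ± 0.12 (SE) and an adjusted p of 0.522 in edgeR. It passed in 3 of 17 settings: with the rod marker level as a covariate (adjusted p 0.0394), with no low-count filter and in DESeq2. Fos was at 1811, 1306, 911 and 1176 CPM against 1539, 1745 and 1261 CPM, and Egr1 had a log2 fold change of 0.02 ± 0.31 (SE). Both overlapped, with Bai1 Tg pos 1 the highest library of all 7.

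**Figure D4:**
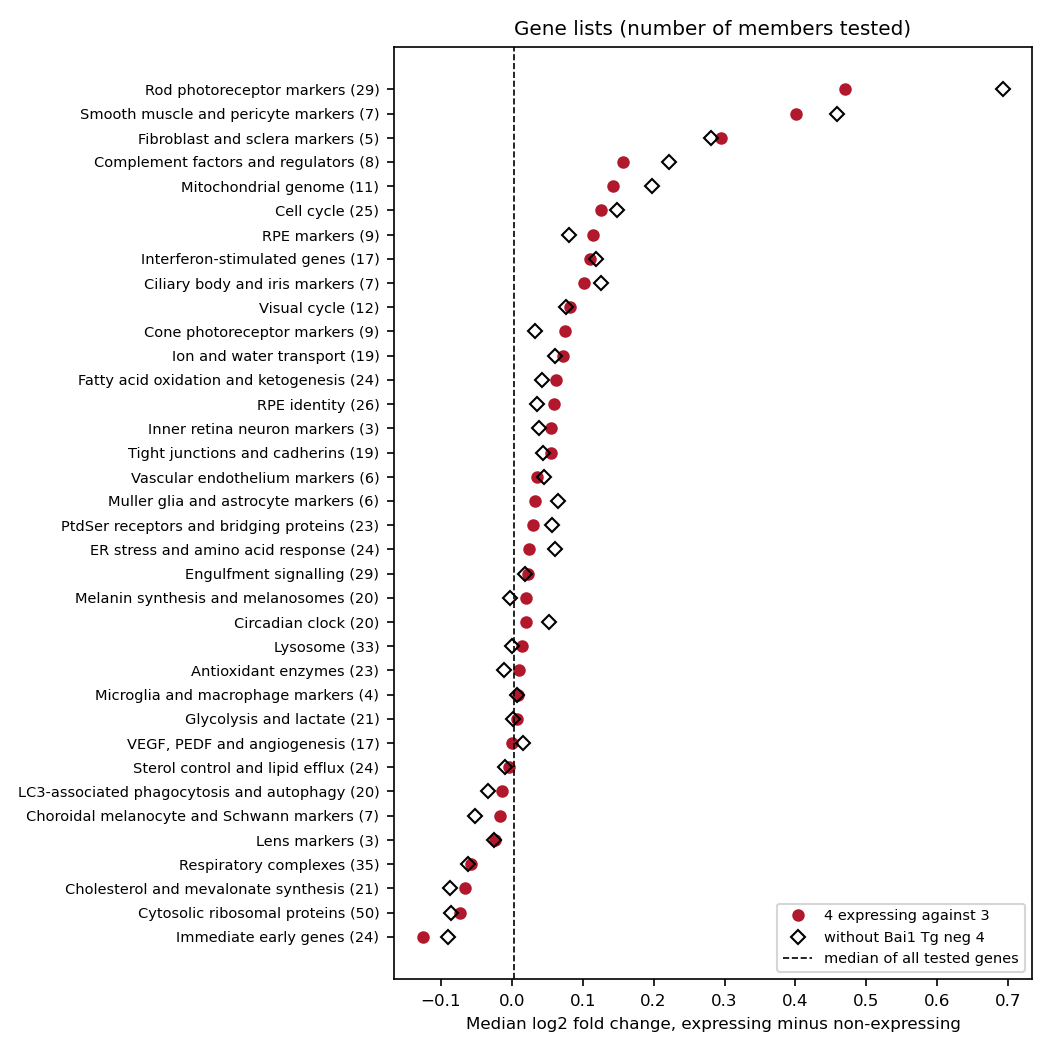
Median log2 fold change, expressing minus non-expressing, of each of the 36 gene lists with at least 3 tested members (number tested in brackets), for the 7 libraries (red circles) and without Bai1 Tg neg 4 (open diamonds). The dashed line is the median of all tested genes, 0.003. Rod markers stand highest, at 0.47 and 0.69 without Bai1 Tg neg 4, and immediate early genes lowest, at -0.13.

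Markers of other cell types were read in the same libraries. In bulk RNA, fewer cells of a type and less RNA per cell cannot be told apart. The 29 rod markers had a median of 0.47 with 25 above 0, and 0.69 without Bai1 Tg neg 4. Their mean log2 CPM was 3.87, 4.72, 2.51 and 3.14 in the expressing libraries and 2.62, 2.86 and 4.13 in the non-expressing ones, which overlapped, and their summed level was 3399 to 4287 CPM and 3114 to 3663 CPM. No rod marker was at 0 in all 7 libraries.

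Smooth muscle and pericyte markers had a median of 0.40 with 5 of 7 tested members above 0, and their summed level did not overlap, at 322 to 521 CPM against 271 to 308 CPM. Their mean log2 CPM did overlap, at 1.54, 2.15, 0.71 and 1.51 against 0.50, 1.64 and 0.62 (exact two-sided permutation p 0.343). Acta2, smooth muscle actin, was at 241, 286, 209 and 201 CPM against 163, 168 and 198 CPM. Myh11, smooth muscle myosin, was at 28.3 and 97.8 CPM in Bai1 Tg pos 1 and 2 and at most 1.31 CPM in the other 5 libraries. None of the 11 markers was at 0 in all 7 libraries. Fibroblast and sclera markers summed to 61.4 to 77.5 CPM against 43.8 to 58.2 CPM, also without overlap, with 4 of 5 tested members above 0 and Kera at 0 throughout. Their mean log2 CPM overlapped, at -1.20 to 0.36 against -0.96 to 0.32, with a difference in means of 0.08 that was -0.08 without Bai1 Tg neg 4.

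Of 20 microglia and macrophage markers 4 were tested. Aif1, Fcgr1, Itgam, Ptprc and Tyrobp were at 0 in all 7 libraries, and 10 more were below 1 CPM in each. The summed level of the list, most of it Csf1r, which shares 871 exon bases with Hmgxb3, was 674 to 733 CPM and 667 to 695 CPM. Mrc1, a macrophage receptor, was at 0.455 to 1.38 CPM against 0 to 0.143 CPM. Over the 17 measures taken once per library (totals, TMM factor, mean marker levels and mitochondrial share) the lowest exact two-sided permutation p was that of the mean log2 level of these markers, 0.0571, the smallest that 35 splits of 4 against 3 allow. All adjusted values were 0.777 or above. The part of these cell types in the gene differences above was not tested beyond the covariate fit named.

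Loci where a transgene could act on its neighbours were also read. Within 1 Mb of Adgrb1 8 genes were tested, 0 passed, 2 lay above 0 and the median was -0.08. Its nearest tested neighbours were Gm7935 on one side and Arc, an immediate early gene of neurons, on the other, at 6.02 to 22.6 CPM in expressing and 8.37 to 14.4 CPM in non-expressing libraries. Within 1 Mb of Gt(ROSA)26Sor, a common site for transgenes in mice, 31 genes were tested, 0 passed and the median was 0.002. The insertion site of this transgene is not known from the sources used here.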

How the data were processed

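The deposited table holds the authors' unnormalised counts of fragments in 46078 genes. Libraries were poly-A selected with the TruSeq kit, per the labels' protocols. STAR and the GRCm38 build are named in the submitters' processing notes. The authors counted, per the file headers, fragments over exons with featureCounts 1.5.0, required both ends to map, and set no option for strand, multi-mapping or overlapping features. The sources used here give no STAR version or annotation release. Columns were matched to libraries by the tag numbers that the descriptions also hold. Symbols were matched by Ensembl ID for 45143 genes, with 99.9% of counts.

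The libraries, lists and genes were chosen with earlier results of these data known. The rule by Adgrb1 uses measured values, so Adgrb1 has no test and no rank in the adjustment. An adjustment with Adgrb1 kept was added after the data were seen. The test was edgeR 4.0.16 (R 4.3.3) with TMM factors, filterByExpr, robust quasi-likelihood F test, two-sided, Benjamini-Hochberg adjustment over all tested genes, threshold 0.05. The SE is the size of the log2 fold change over the square root of F. Alternatives were the titles as given, each library left out, DESeq2 1.42.0, RLE size factors, no low-count filter, limma-voom (limma 3.58.1) with quality weights, the replicate number, tag number or rod marker level as a term (Bai1 Tg neg 4 has a block of its own and adds nothing to that fold change), and all 15 libraries in 1 fit. Lists, 38 in all, were described by counts and medians.

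Named genes are a fixed set of receptors and sterol genes, the 12 higher and the 12 lower symbols (not of the Gm or Rik kind) with the smallest p, all that passed, the 2 members of smallest p and, for marker lists, the 2 most abundant of each list, and neighbours of both loci. Dusp1, Egr1, Elmo2, Fos, Gm26809, Lrat, Lss, Mvd, Pde6b, Sqle and the copies, overlapping genes, markers at 0 and chromosome 14 genes were chosen after their values were seen. Copies were found with blastn 2.17.0 in GENCODE transcripts of GRCm38 at 95% identity or more over at least 150 bases. Promoters are from RefSeq. Fdps has none in that table. Floors of 3 counts and the 95% exact Poisson intervals reflect counting alone, as PCR copies cannot be told from separate molecules.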

Additional observations from a re-analysis of the deposited data

Results flagged for a closer look

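In groups of 4 expressing libraries 12 values stood far from the other 3, a gap above 0.829 of the group's range, out of 153 groups looked at, and chance gives about 1 in 20. Fdps was at 44.2 CPM in Bai1 Tg neg 4 against 23.4 to 24.8 CPM in Bai1 Tg pos 1 to 3. Gm26809 was at 2.02 CPM in Bai1 Tg neg 4 and at 0 in the other 3. Both passed in edgeR without Bai1 Tg neg 4 and with the libraries as titled. With it among the expressing neither passed in the filtered edgeR test, and Fdps passed with no low-count filter and in DESeq2. Bai1 Tg pos 2 stood high for Aqp1 (12.7 CPM), C4b (12.2 CPM), Cpt2 (86.9 CPM) and Adgrb3 (0.0599 CPM), and low for the mean log2 CPM of RPE markers (10.3, with Best1 at 0). Bai1 Tg pos 1 stood low for Slc22a17 (439 CPM) and high for Cd68 (14.8 CPM) and Mvd (67.0 CPM). Bai1 Tg pos 3 stood high for Uvrag (30.8 CPM) and low for Prkca (30.0 CPM).

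Adgrb1 was also read in the 8 Mertk libraries, which the comparison does not use. Mertk WT 1 had 3 counts (0.201 CPM), Mertk WT 2 had 8 counts (0.432 CPM) and Mertk KO 1 had 5 counts (0.27 CPM), at or above the level of 3 counts. All are below 1 CPM.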

How the results depend on the processing

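Against 0 genes passing in edgeR (552 at an unadjusted p under 0.05), the count was 1 (lower, Rsrp1) with Adgrb1 kept in the adjustment, added after seeing the data, 2 as titled (both lower), 3 with the replicate number as a block (1 higher, 2 lower), 2 with the rod marker level (both lower), 2 with limma-voom (1 higher, 1 lower), 16 with DESeq2 (4 higher, 12 lower), 63 with no low-count filter (36 higher, 27 lower) and 0 with RLE size factors, the tag number as a term, or all 15 libraries in 1 fit. Leaving out 1 library gave 0 to 4 genes, 0 to 2 higher and 0 to 4 lower. The highest counts came without Bai1 Tg neg 4 (4) and Bai1 Tg pos 1 (3), and the count was 0 without Bai1 Tg pos 3 or Bai1 Tg neg 3. Genes whose groups do not overlap numbered 1405 to 1773 with 1 library left out, where fewer libraries make overlap rarer by construction. The cause of the other changes was not tested.

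The sources used here do not say what the replicate numbers mean, and whether they pair the libraries is not known. Deviations of same-numbered libraries correlated at 0.003, 0.015 and 0.008, and those of other-numbered libraries at -0.048 to 0.035. These values cannot exclude a shared litter, day or preparation. With the block Fdps (adjusted p 0.0168) and Idi1 (0.0313) passed in edgeR, and Rsrp1 did not (0.121). Of the named genes 22 passed in at least 1 alternative, none of them with a changed direction. Sign changes of genes called in neither fit were not counted. List medians moved by more than the spread between libraries in 7 of 36 lists. Depth limits genes near the floor, such as Elmo1 and Adgrb2, for which a difference was not detectable.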

Other observations

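Genes of small p were unevenly spread over the chromosomes, a count made after the values were seen and given without a test. On chromosome 14, 13 of 460 tested genes had an unadjusted p under 0.01 in edgeR (2.83%), against 91 of 13394 elsewhere (0.679%) and at most 1.25% on any other chromosome, that of chromosome 10. Without Bai1 Tg neg 4 it was 11 of 453 (2.43%) against 0.771%. The genes were Pxk, Il3ra, Thrb, 1810062O18Rik, Plau, Zmiz1, Arhgef3, Timm23, Cdhr1, Pabpn1, Slc22a17, Efs and Tnfrsf10b, in order of position, of which 6 were higher and 7 lower in the expressing libraries. Pabpn1, Slc22a17 and Efs are neighbours, at 54892500 to 54926788, and were all lower, at -0.38, -0.27 and -0.29 on the log2 scale. Thrb, a thyroid hormone receptor, was at 62.5, 49.4, 53.8 and 48.3 CPM in the expressing libraries and at 43.4, 44.7 and 39.8 CPM in the non-expressing ones. Genes whose groups do not overlap were 8.70% of those tested on that chromosome and 5.75% elsewhere.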
